A study of Mus musculus with 36 samples.

Results

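C2C12 myoblasts, a mouse muscle precursor line that stops dividing and fuses into myotubes when serum is withdrawn, were compared at 6 h and at 2 h after the same change of medium. The comparison rests on 6 arrays of 36: the 3 labelled as 6 h of differentiation and the 3 labelled as 2 h, joined by replicate number, and every probe of the raw intensity table was considered. Cells at 6 h and cells at 2 h had both been moved from DMEM with 20% fetal bovine serum to DMEM with 2% horse serum, so the named medium was the same on either side and the time in it differed. The labels name no genetic change or drug, and cultures were grown on separate plates, with the 3 replicates of each time taken from successive passages. The same-numbered 6 h and 2 h arrays also shared a chip in all 3 replicates, and the 3 h array of that number lay on it too. Myoblasts at 0 h, still in 20% serum, and the 9 other later times show where a gene stood before, within and after the interval, and their arrays also enter the fit that sets the spread.

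Muscle differentiation is driven by the MyoD family of basic helix-loop-helix factors, which pair with E proteins and bind E-boxes, short DNA motifs, in muscle gene promoters and enhancers. In dividing myoblasts Id proteins occupy the E proteins, and serum withdrawal is known to release this brake, after which myogenin, the cell cycle inhibitor p21 and then the contractile proteins appear. A change of medium by itself also sets off a short-lived wave of immediate early genes within the first hours, which usually fades before the muscle programme is under way.

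Between 2 h and 6 h the largest rises were of contractile and other muscle genes, with the endoplasmic reticulum chaperone Hspa5 and the Notch target Heyl, and the largest falls were of genes such as Srsf5, Timp3, Ccn2 and Slc30a1. Of 29812 probes tested, 828 changed, which is 2.78% of those tested (limma, paired by replicate number, Benjamini-Hochberg adjusted p under 0.05). Of these, 375 were higher at 6 h (1.26% of those tested) and 453 were lower (1.52%). They covered 281 genes that were higher and 321 that were lower, with 4 genes (Map3k12, Soga1, Terf2 and Ttll5) in both groups through different probes. Changes were small: the median log2 change of the higher probes was 0.55 and that of the lower ones was -0.49, and only 21 probes rose and 12 fell by 2-fold or more. All 828 moved the same way in the 3 same-numbered pairs, as 38.3% of all tested probes did, and for 695 of them the 3 arrays of 6 h did not overlap the 3 of 2 h (83.9%, against 13.7% of all tested probes). By gene, 281 of 13254 tested genes were higher (2.12%) and 321 lower (2.42%), the shares beside which the counts of each gene list below stand. The lists were chosen with earlier results of these data known, so their counts are a description. The direction split depended on the scaling of the arrays and on which arrays were fitted. Higher probes made up 45.3% of the calls with quantile normalization, 72.0% of 311 calls with median scaling and 53% of 843 with cyclic loess. With the same pairing they were 621 of 1056 calls (58.8%) when only the 6 arrays compared were fitted and 869 of 1561 (55.7%) with the 9 arrays of 2, 3 and 6 h, so more probes were then higher than lower. Without the pairing, 185 probes changed, 77 higher and 108 lower.

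**Figure D1:**
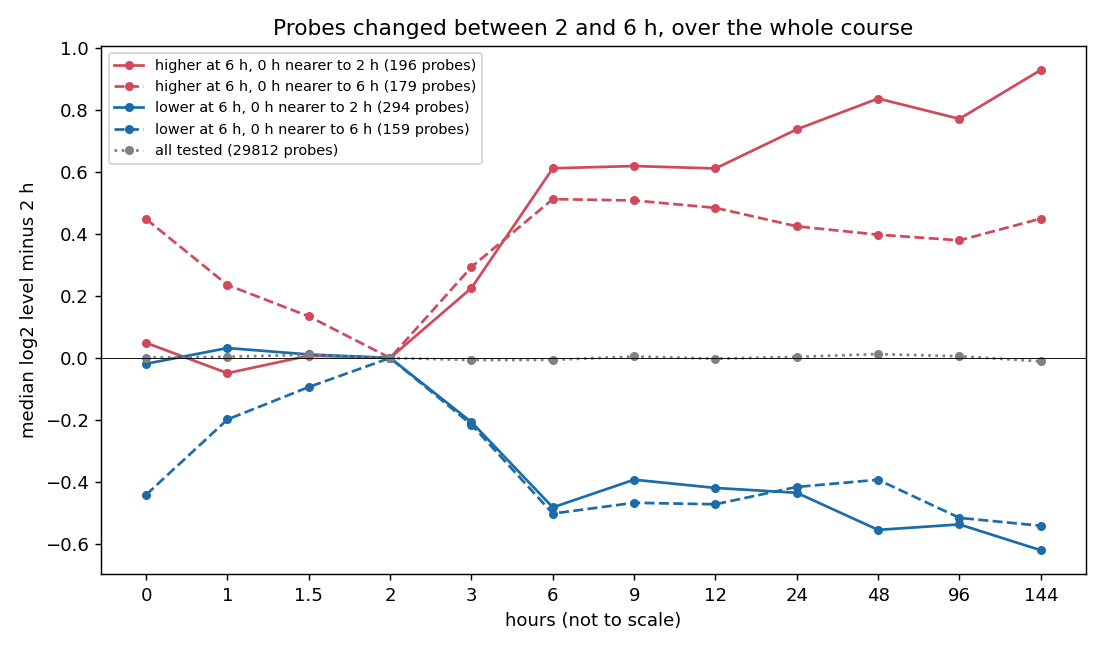
Median log2 level minus the 2 h level (vertical axis) at each of the 12 times (horizontal axis, not to scale) for the probes higher at 6 h (red) and lower at 6 h (blue) than at 2 h, each split by whether the 0 h mean lay nearer to the 2 h mean (solid) or to the 6 h mean (dashed), with all 29812 tested probes dotted in grey. The 196 solid red probes had a median of 0.61 at 6 h and 0.05 at 0 h, while the 179 dashed red probes had 0.51 at 6 h and 0.45 at 0 h.

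The 0 h cells divided these probes into departing ones (0 h mean nearer to 2 h) and returning ones (nearer to 6 h). Only in replicate 1 did the 0 h array share a chip with those of 2 h and 6 h. The probes were also chosen by their 2 h levels, and spread at 2 h alone can place 0 h nearer to 6 h. The position of 0 h was not tested. Of the 375 probes that rose, the 0 h mean was nearer to the 2 h mean for 196 and nearer to the 6 h mean for 179. Of the 453 that fell, it was nearer to the 2 h mean for 294 and nearer to the 6 h mean for 159. The plot of medians over the course shows both kinds, with the dashed groups starting near their 6 h level, moving away by 2 h and coming back. The comparison of 12 h against 0 h shares no array with 6 h against 2 h, but both use the same fit and spread of each probe. A probe of small spread is called more readily in both, so the shares that follow are a description. In 12 h against 0 h 4.71% of all tested probes changed (2.46% higher, 2.25% lower). Of the 375 risers 130 were higher and 3 lower, and of the 453 fallers 154 were lower and 9 higher. Those 130 were 34.7% of the risers and the 154 were 34.0% of the fallers. By the position of 0 h, 119 of the 196 departing risers and 11 of the 179 returning ones were higher at 12 h than at 0 h. Among fallers the counts lower at 12 h were 143 of 294 and 11 of 159. Because the split and the 12 h comparison both used the 0 h arrays, the contrast between departing and returning probes is a description without a test.

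Part of a list for the sarcomere and contraction was higher at 6 h. Of its 26 tested genes, 12 were higher and 0 lower (over all tested genes 2.12% and 2.42%), and the median log2 change of its 43 tested probes was 0.63, against -0.0062 for all tested probes. Mybph (probe 2190711, chromosome 1), a myosin-binding protein of the thick filament, had log2 levels of 13.30, 10.91 and 12.24 in replicates 1 to 3 at 6 h, against 10.86, 9.66 and 11.37 at 2 h. The 2 times overlap for Mybph, because replicate 2 was low at both, but each pair rose, by 2.45, 1.25 and 0.87. Its mean rise over the 3 pairs was 1.52 ± 0.34 (log2, SE of the fit) and passed the test (limma adjusted p = 0.011). This SE, like that of every change given below, takes its spread from the fit to all arrays. It does not measure the spread between the 3 pairs of a gene. Casq2, the calcium store protein of the sarcoplasmic reticulum, had 10.65, 8.43 and 9.83 at 6 h, against 8.52, 7.65 and 8.88 at 2 h (1.29 ± 0.28, adjusted p = 0.0093). Ckm, the muscle creatine kinase, had 9.69, 8.14 and 9.28 at 6 h, against 8.17, 7.28 and 8.33 at 2 h (1.11 ± 0.28, adjusted p = 0.024). For these genes too the groups overlap while every pair rose. Tnni2, fast troponin I, had 13.81, 12.05 and 13.30 at 6 h, against 12.09, 11.10 and 12.81 at 2 h (1.05 ± 0.26, adjusted p = 0.022).

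Among the 12 largest rises, 7 were of this list, the others of the 7 being the myosin genes Myh1 (1.18), Myl4 (1.14) and Myl1 (1.09). Smaller rises were called for the myosin heavy chain Myh8 (1.04), tropomyosin Tpm2 (0.96), the calcium release channel Ryr1 (0.86), titin (Ttn, 0.67) and cardiac troponin T (Tnnt2, 0.67). Myh1 and the called Ttn probe were dim, above the array median on 2 of 3 arrays at 2 h. The calls of Myh1 and Myh8 were lost with the authors' normalized values and without background correction. Smyd1, a muscle methyltransferase needed for myofibril assembly and not on the list, rose by 1.20 ± 0.23 (adjusted p = 0.0023), with 12.65, 11.55 and 11.97 at 6 h, against 11.14, 10.14 and 11.31 at 2 h. The groups do not overlap for Smyd1. The actins Actc1 (1.12, adjusted p = 0.083) and Acta1 (1.05, adjusted p = 0.071) had changes of similar size with a wider spread and did not pass. Second probes of Myl4 (0.00) and Smyd1 (-0.03) did not follow the first. Of 4 Ryr1 probes 2 rose (0.86 and 0.78) and the others had 0.16 and 0.05, and the Ttn probes that did not pass had between -0.10 and 0.72.

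Replicates of these muscle genes lay far apart. In all 15 called probes of the list, replicate 2 was the lowest of the 3 at 6 h and also at 2 h, and pair 1 moved the most. The list's median change was 0.84 in pair 1, 0.43 in pair 2 and 0.30 in pair 3. None of the list's 26 genes passed without replicate 1, 6 did without replicate 2 and 2 without replicate 3, and none passed when the pairing was left out (limma). The authors' normalized values gave 6 genes that passed. Of its 15 called probes, 14 were also higher at 12 h than at 0 h, Mybph by 3.21 (adjusted p = 1.7e-07) and Casq2 by 2.83 (adjusted p = 6.4e-08). Of all tested probes 2.46% were higher in that comparison, and of the 375 risers 34.7%. Both comparisons use the same fit and spread of each probe, so the count is a description. RNA of whole cultures was measured, so more cells making a transcript and more transcript per cell cannot be told apart.

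**Figure D2:**
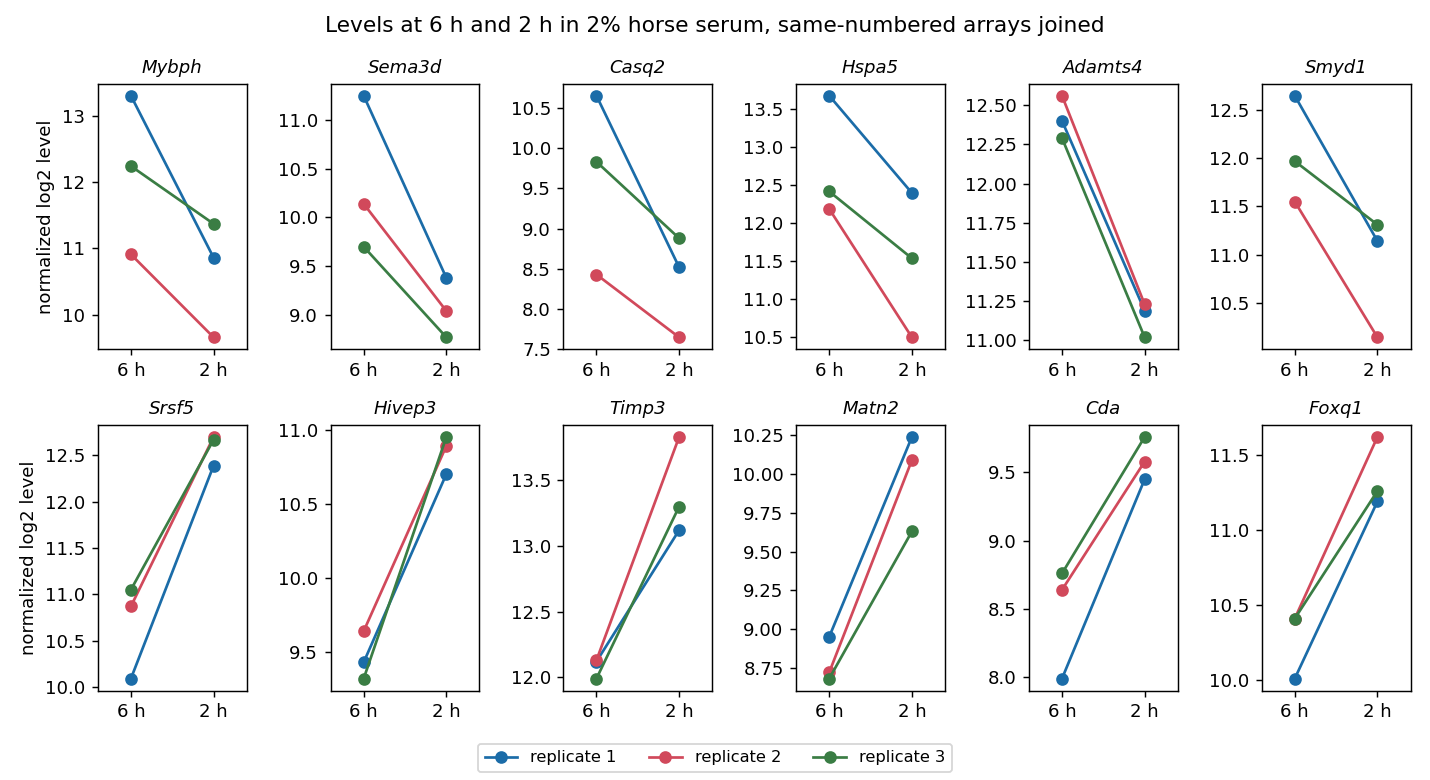
Normalized log2 level (vertical axis, a different range in each panel) at 6 h (left) and 2 h (right) of the 6 largest rises (top row) and the 6 largest falls (bottom row), 1 point per array, with the same-numbered arrays, which shared a chip, joined. Every line of the top row is higher at 6 h and every line of the bottom row is lower, but the arrays of the 2 times overlap for Mybph, Casq2 and Hspa5, and do not for Adamts4 and the 6 falls.

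The promoters of 3 rising muscle genes are shown because they hold the E-box CAGCTG, a form that MyoD and myogenin are known to bind. Each is a stretch of 100 bases upstream of the start, from RefSeq on GRCm38.p6, with CAGCTG in capitals and other E-box forms unmarked. They lie at chr1:134193322-134193421 for Mybph, chr1:135836097-135836196 for Tnnt2 and chr7:19410844-19410943 for Ckm, all on the plus strand.
Mybph: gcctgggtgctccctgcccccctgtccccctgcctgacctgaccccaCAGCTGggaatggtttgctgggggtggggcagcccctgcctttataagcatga
Tnnt2: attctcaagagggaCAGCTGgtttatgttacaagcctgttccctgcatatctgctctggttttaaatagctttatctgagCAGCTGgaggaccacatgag
Ckm: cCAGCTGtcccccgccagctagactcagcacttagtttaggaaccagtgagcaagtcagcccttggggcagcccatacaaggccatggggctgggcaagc
CAGCTG, which reads the same on both strands, occurred in 5 of 12 promoter windows (250 bases before to 50 after the start) of the 11 rising list genes that RefSeq matched, those of Ckm, Mybph, Myl1, Tnnt2 and Tpm2. Of all 32851 windows of that length, 16.3% held it. The motif was chosen with the risers known, so this is a description of the windows.

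Of 18 tested regulators of myogenesis, 3 rose (Hes6, Cdkn1a and Rbm24) and 0 fell, against 2.12% and 2.42% of all tested genes, with a median log2 change of 0.17 over 28 probes. Hes6, a Hes family member that favours myogenesis, had 15.09, 14.91 and 14.91 at 6 h, against 14.50, 14.32 and 14.60 at 2 h. All 3 levels at 6 h were above all 3 at 2 h, and the rise of 0.50 ± 0.07 passed (adjusted p = 0.00015). Cdkn1a, which encodes p21, had 15.04, 14.62 and 14.82 at 6 h, against 14.34, 14.00 and 14.40 at 2 h (0.58 ± 0.13, adjusted p = 0.011). Rbm24, an RNA-binding protein of muscle, rose by 0.62 (adjusted p = 0.011) but was above the array median, a log2 level of 7.09 over all probes, on 2 of 3 arrays at 6 h and on 0 at 2 h. Myogenin (Myog) had 11.24, 9.87 and 10.48 at 6 h, against 10.24, 8.90 and 10.14 at 2 h. Each pair of Myog was higher at 6 h, but the change of 0.77 (95% interval 0.18 to 1.36) did not pass over all probes (adjusted p = 0.18), and Myog was higher by 2.03 at 12 h than at 0 h (adjusted p = 1.4e-05). Myod1 (0.12, 95% interval -0.21 to 0.46) and Myf5 (0.15, -0.20 to 0.51) did not pass either.

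Of 15 tested factors that hold myogenesis back, 2 were higher (Heyl and Msc) and 1 lower (Id2), against 2.12% and 2.42% of all tested genes. Id2, an inhibitor of basic helix-loop-helix factors, fell by 0.76 ± 0.20 (adjusted p = 0.038), with 11.07, 9.45 and 10.29 at 6 h, against 11.83, 10.22 and 11.04 at 2 h. The 3 pairs differed by nearly the same amount, although the replicates were so far apart that the groups overlap. Id1 and Id3 had most of their distance from growing cells by 2 h, which was not tested: Id1 averaged 12.43 in 0 h cells, 11.17 after 2 h and 10.85 after 6 h, and Id3 averaged 13.96, 12.60 and 12.48. From 2 h to 6 h neither passed (Id1 -0.32, adjusted p = 0.17, and Id3 -0.12, adjusted p = 0.85), while at 12 h both were below 0 h, by -1.38 and -1.62 (adjusted p = 6.9e-09 and 1e-07). Musculin (Msc), a repressor that competes with MyoD, rose by 0.54 (adjusted p = 0.033).

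The other change on that list was of Heyl, which also belongs to the Notch pathway, where a membrane receptor cut on contact with its ligand releases a fragment that turns on Hes and Hey genes. Heyl (probe 5860528, chromosome 4) had 9.94, 9.36 and 10 at 6 h, against 8.71, 7.92 and 9.12 at 2 h. Its groups do not overlap, and its rise of 1.18 ± 0.18 (adjusted p = 0.00033) passed without any one of the replicates. Of 18 tested Notch pathway genes, 4 rose and 0 fell (over all tested genes 2.12% and 2.42%). They were Heyl, Dtx4, an E3 ligase of the pathway (1.03, adjusted p = 0.0031), the receptor Notch1 (0.73, adjusted p = 0.0025) and Numb, which restrains the receptor (0.37, adjusted p = 0.038). The median of the list was 0.05, and the other Notch target genes Hes1 (-0.05, 95% interval -0.34 to 0.24) and Hey1 (-0.06, -0.38 to 0.25) did not pass. The whole list had 2, 1 and 2 genes that passed without replicates 1, 2 and 3, and 1 without the pairing. Mean levels at 2 h and 0 h were 8.59 and 9.27 for Heyl, 10.64 and 11.19 for Notch1 and 8.35 and 8.45 for Dtx4, differences that were not tested. Only 1 of the 4 Numb probes passed.

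**Figure D3:**
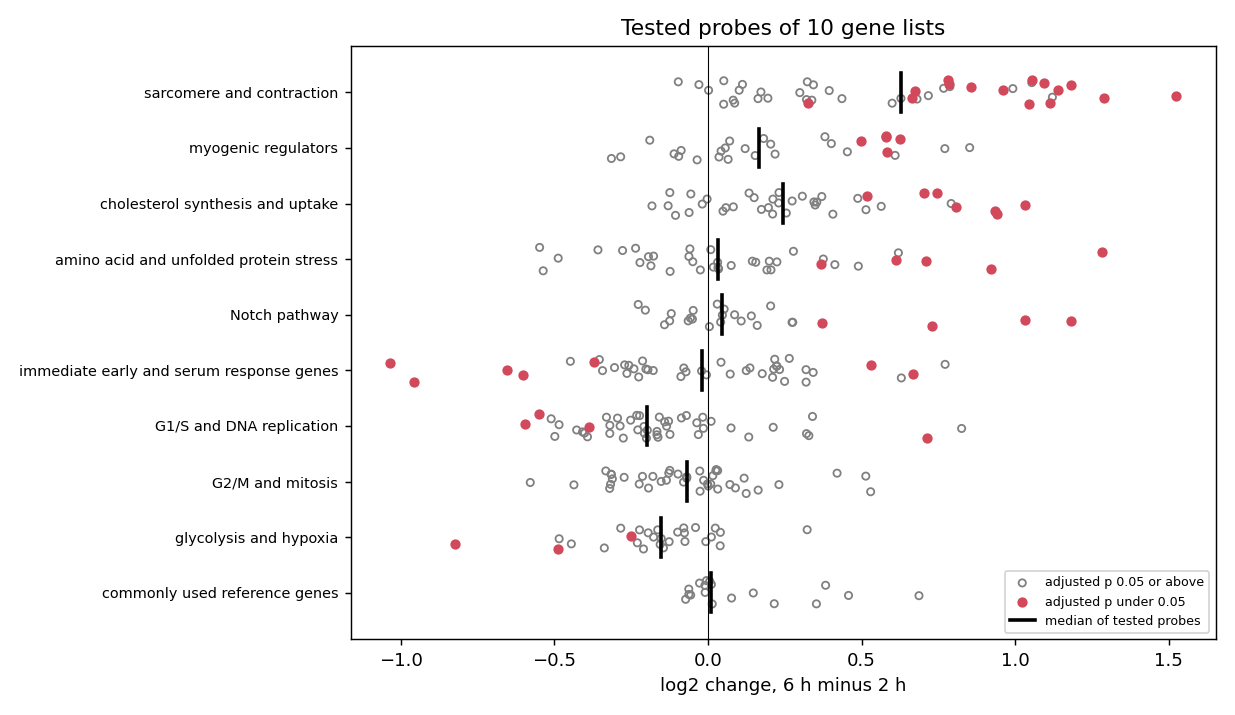
Log2 change, 6 h minus 2 h (horizontal axis), of every tested probe of 10 gene lists (rows), with filled red points for adjusted p under 0.05, open grey points for the rest and a black bar at the list's median. The sarcomere list has its median at 0.63 and the cholesterol list at 0.24, while the medians of the reference genes and of the immediate early genes lie at 0.01 and -0.02.

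On a list for amino acid and unfolded protein stress, 5 of 27 tested genes rose and 0 fell (over all tested genes 2.12% and 2.42%), with a list median of 0.03, and the 5 encode proteins of the endoplasmic reticulum or its stress response. The 6 h mean of Hspa5, Dnajb9, Creld2 and Xbp1 was the highest of the 12 times. Hspa5 (probe 5130671, chromosome 2), the chaperone BiP and a standard target of the unfolded protein response, had 13.68, 12.19 and 12.42 at 6 h, against 12.40, 10.50 and 11.54 at 2 h. The groups overlap, since replicate 1 was high at both times, but every pair rose and the change of 1.28 ± 0.26 passed (adjusted p = 0.0049). Dnajb9, a co-chaperone of BiP, had 11.28, 10.04 and 10.34 at 6 h, against 10.15, 9.02 and 9.73 at 2 h (0.92 ± 0.13, adjusted p = 0.00013). The remaining members that rose were Creld2, an endoplasmic reticulum stress protein (0.71, adjusted p = 0.00049), Herpud1, which serves in degradation of misfolded proteins (0.61, adjusted p = 0.032), and the transcription factor Xbp1 (0.37, adjusted p = 0.0032). Atf4 (0.16 for the brightest of its probes, adjusted p = 0.77) and Ddit3 (0.14, adjusted p = 0.83), also on the list, did not pass. Hspa5 averaged 11.68 in 0 h cells, 11.48 after 2 h, 12.76 after 6 h and 11.84 after 9 h, and at 12 h it differed from 0 h by 0.04 (adjusted p = 0.98). Herpud1 instead averaged 10.76 at 6 h and went on to 12.46 at 96 h. Of the list, 4, 1 and 4 genes were higher without replicates 1, 2 and 3 (Hspa5 not without replicate 2), and 1 without the pairing. Without replicate 1, 1 gene was lower.

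The promoters of Hspa5 and Creld2 are shown because they hold the endoplasmic reticulum stress element, known to be read by ATF6 with NF-Y and spelled CCAAT, then 9 bases of any kind, then CCACG. The stretches are of 100 bases upstream of the start, from RefSeq on GRCm38.p6, both on the plus strand, at chr2:34771984-34772083 for Hspa5 and chr15:88819479-88819578 for Creld2, with the fixed letters of the element in capitals (in Creld2 it lies on the opposite strand and is printed as its reverse complement).
Hspa5: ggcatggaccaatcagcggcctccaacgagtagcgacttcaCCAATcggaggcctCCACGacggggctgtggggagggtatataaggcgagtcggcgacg
Creld2: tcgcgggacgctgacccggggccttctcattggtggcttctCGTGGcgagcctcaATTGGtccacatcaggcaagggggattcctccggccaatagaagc
Searched on both strands, the element was in 2 of the 5 windows of the rising members and in 39 of all 32851 windows (0.119%). The element too was chosen with the risers known, so these counts only describe the windows. That the letters were not found in the windows of Dnajb9, Herpud1 and Xbp1 says nothing about the factor.

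Genes of cholesterol synthesis, which sterol regulatory element binding proteins switch on when cell sterol is low, formed another list with rises. Of 21 tested, 7 rose and 0 fell (over all tested genes 2.12% and 2.42%), with a median of 0.24 over 38 probes. Msmo1, a methylsterol oxidase, had 12.36, 12.48 and 12.13 at 6 h, against 11.47, 11.53 and 11.17 at 2 h. The groups do not overlap, the 3 pairs rose by similar amounts, and the change of 0.93 ± 0.15 (adjusted p = 0.0004) passed without any one of the replicates and without the pairing. Idi1, the isopentenyl diphosphate isomerase, had 9.83, 9.30 and 8.97 at 6 h, against 8.95, 8.07 and 7.97 at 2 h (1.03 ± 0.25, adjusted p = 0.021). Fdps, farnesyl diphosphate synthase (0.94), Sc5d, a sterol desaturase (0.81), Stard4, a sterol carrier (0.75), Mvd, mevalonate decarboxylase (0.70), and Sqle, squalene epoxidase (0.52), were the others. Further probes of Fdps (0.23), Sc5d (-0.11), Stard4 (0.51) and Sqle (0.37 and 0.06) did not pass. Hmgcs1, which makes the precursor of mevalonate, had groups that do not overlap (14.60, 15.19 and 14.75 at 6 h, against 13.94, 14.42 and 13.81 at 2 h) but did not pass (0.79, adjusted p = 0.15). Without replicate 2 only 1 gene of the list passed, against 6 without replicate 1, 4 without replicate 3 and 4 without the pairing. The list's median was 0.09 in pair 1, 0.41 in pair 2 and 0.42 in pair 3, the reverse of the order seen for the muscle genes.

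The 3 h arrays, on the same chips, divide the interval. From 2 h to 3 h 55 probes changed (0.184% of those tested), 24 higher (0.0805%) and 31 lower (0.104%), and from 3 h to 6 h 69 did (0.231%), 38 higher (0.127%) and 31 lower (0.104%). In the first step 0 probes passed without any one replicate (limma, 1251 to 2255 at an unadjusted p under 0.05), 1 with median scaling and 2 without the pairing, so the calls given for that step (Adamts4, Dnajb9, Hsph1, Maff and Fosl2) did not hold when a replicate was left out. The median position of the 3 h mean on the way from 2 h to 6 h was 0.46 for the risers and 0.41 for the fallers, where 0 is the 2 h level and 1 the 6 h level. Of the 7 sterol genes, 4 passed in the second step alone: Msmo1 changed by -0.38 from 2 h to 3 h (adjusted p = 0.45) and rose by 1.31 from 3 h to 6 h (adjusted p = 2.7e-05), Stard4 rose by 1.03 (adjusted p = 0.0046), Mvd by 0.83 (adjusted p = 0.011) and Sqle by 0.67 (adjusted p = 0.0046). Adamts4, a protease that cuts aggrecan and other matrix proteoglycans, rose in both steps, by 0.62 and 0.65 (adjusted p = 0.032 and 0.019). Its levels were 12.40, 12.56 and 12.29 at 6 h, against 11.19, 11.23 and 11.02 at 2 h, with the smallest SE among the 12 largest rises (1.27 ± 0.13, adjusted p = 6.8e-07). Dnajb9 rose already by 3 h (0.63, adjusted p = 0.032), as did Hsph1, a large heat shock protein (0.55, adjusted p = 0.041). None of the 15 called sarcomere probes passed in the first step (limma), where their changes were between 0.00 and 0.39 with a median of 0.18. Mybph changed by 0.18 (adjusted p = 0.94) and Ttn by 0.39 (adjusted p = 0.51), and the second steps of Mybph and Ttn, 1.34 and 0.28, did not pass by themselves either (adjusted p = 0.093 and 0.66). The remaining large rise was of Sema3d, a secreted guidance factor, with 11.25, 10.14 and 9.70 at 6 h, against 9.38, 9.04 and 8.77 at 2 h. Its groups do not overlap, but its change of 1.30 ± 0.36 stood close to the threshold (adjusted p = 0.045) and did not pass without any one of the replicates.

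**Figure D4:**
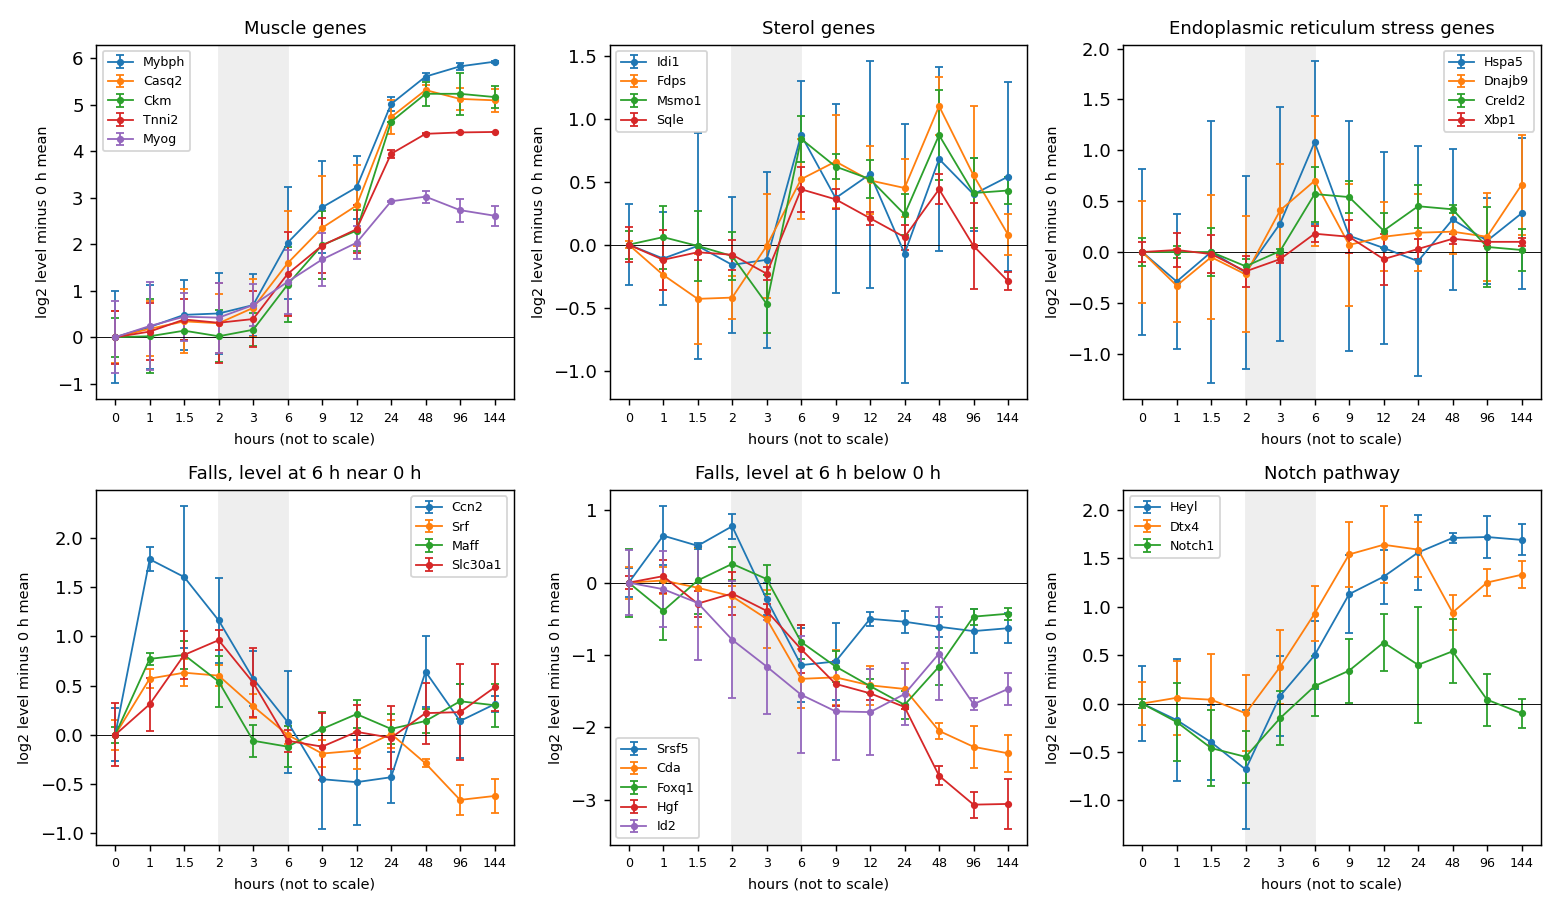
Mean log2 level minus the 0 h mean (vertical axis, error bars the SD of 3 arrays) at the 12 times (horizontal axis, not to scale), with the interval from 2 h to 6 h shaded, in 6 panels of genes named in the text. Muscle genes keep climbing after 6 h, Hspa5 is highest at 6 h, and Ccn2, Srf, Maff and Slc30a1 are above 0 h at 2 h and near it at 6 h. Of the sterol genes, Msmo1 and Sqle step up between 3 h and 6 h, where the rises of Idi1 and Fdps did not pass.

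Some falls, such as those of Ccn2, Srf and Slc30a1, ended near the level of growing cells, and others below it. Of 31 tested immediate early and serum response genes, 5 fell (Ccn2, Atf3, Maff, Srf and Fosl2) and 2 rose (Dusp6 and Egr1). Over all tested genes 2.42% fell and 2.12% rose, and the list's median log2 change was -0.02. Ccn2, connective tissue growth factor, a secreted protein induced through serum response factor and YAP, had 13.61, 12.61 and 13.35 at 6 h, against 14.46, 13.73 and 14.48 at 2 h. The groups do not overlap and Ccn2 fell by 1.03 on the log2 scale (± 0.25, adjusted p = 0.018). Its mean level over time was 13.06 in 0 h cells, 14.84 after 1 h, 14.22 after 2 h, 13.63 by 3 h and 13.19 by 6 h. Srf, serum response factor itself, had 13.45, 13.27 and 13.37 at 6 h, against 13.93, 13.88 and 14.09 at 2 h (-0.60 ± 0.10, adjusted p = 0.00095), and averaged 13.36 at 0 h, the same as at 6 h. Maff, a small Maf factor, changed by -0.65 (adjusted p = 0.0031) and Fosl2, an AP-1 subunit, by -0.37 (adjusted p = 0.021), both within the first step, by -0.59 and -0.43 (adjusted p = 0.04 and 0.038). Maff averaged 9.36 at 6 h and 9.48 at 0 h. Fosl2 averaged 11.61 at 0 h, 11.56 at 2 h and 11.19 at 6 h, and was lower at 12 h than at 0 h (-0.37, adjusted p = 0.012). Atf3, a stress-induced factor, fell by 0.96 (adjusted p = 0.039) to a level above the array median on 1 of 3 arrays at 6 h (mean 6.89, with 7.41 at 0 h).

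The 2 members that rose were Dusp6 (0.67, adjusted p = 0.034) and Egr1 (0.53, adjusted p = 0.0072), both read-outs of ERK signalling. They averaged 12.64 and 14.63 at 6 h, against 11.97 and 14.10 at 2 h, after 12.30 and 14.58 at 0 h and 13.11 and 15.20 at 1 h. Fos had the same shape, with 11.13 after 1 h, 9.38 after 2 h and 10.15 after 6 h, and did not pass (0.77, adjusted p = 0.16). The list depended on the fit: 0 genes rose and 2 fell with median scaling, and without replicates 1, 2 and 3 the counts lower were 1, 1 and 0, with 0 higher. Slc30a1, a zinc exporter of the cell membrane, had 8.90, 8.72 and 8.71 at 6 h, against 9.79, 9.91 and 9.70 at 2 h. This is a fall of all 3 replicates to one level (-1.02 ± 0.14, adjusted p = 8.8e-05), close to the 0 h mean of 8.84, and a second probe changed by -1.11 (adjusted p = 0.00041). Hmox1, heme oxygenase and an oxidative stress gene, changed by -0.96 (adjusted p = 0.00075). Its mean was 12.07 at 0 h, 12.22 at 2 h and 11.26 at 6 h, and it was lower at 12 h than at 0 h (-0.60, adjusted p = 0.026).

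The largest fall was of Srsf5 (probe 6350008, chromosome 12), a serine- and arginine-rich splicing factor, whose mean at 6 h was below that at 0 h. It had 10.09, 10.87 and 11.05 at 6 h, against 12.39, 12.70 and 12.67 at 2 h. Every pair of Srsf5 differed by more than 1 log2 unit and its groups do not overlap (-1.92 ± 0.18, adjusted p = 1.5e-07). It averaged 10.67 at 6 h and 11.81 at 0 h, its change at 12 h against 0 h did not pass (-0.50, adjusted p = 0.12), and a second probe changed by -1.09 (adjusted p = 0.00017). Timp3, an inhibitor of matrix metalloproteases, had 12.12, 12.13 and 11.99 at 6 h, against 13.12, 13.83 and 13.30 at 2 h (-1.33 ± 0.22, adjusted p = 0.00056), nearly all of it after 3 h (-1.29 from 3 h to 6 h, adjusted p = 0.005). Its second probe changed by -0.75 (adjusted p = 0.007) and its other probe by -0.28 (adjusted p = 0.53). Hivep3, a large zinc finger factor (-1.38), and Matn2, a matrix adaptor protein (-1.20), fell without overlap, though other probes of these genes did not (0.04 for Hivep3, -0.02 and 0.10 for Matn2).

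Cda, cytidine deaminase, had 7.99, 8.64 and 8.76 at 6 h, against 9.45, 9.58 and 9.76 at 2 h (-1.14 ± 0.14, adjusted p = 3.2e-05). Foxq1, a forkhead factor, had 10.01, 10.41 and 10.41 at 6 h, against 11.19, 11.62 and 11.26 at 2 h (-1.08 ± 0.15, adjusted p = 8.8e-05). Neither gene's groups overlap, and at 12 h they were lower than at 0 h by -1.42 and -1.43 (adjusted p = 6.6e-08 and 8.6e-08). Hgf, hepatocyte growth factor, a mitogen of muscle precursors, changed by -0.77 (adjusted p = 0.0081) and was lower by -1.52 at 12 h than at 0 h (adjusted p = 2.5e-07). Npr3, the clearance receptor of natriuretic peptides (-1.02), and H1f2, a linker histone (-0.97), complete the 12 largest falls. At 12 h against 0 h Npr3 was lower (-0.59, adjusted p = 0.016) and H1f2 did not pass (-0.29, adjusted p = 0.35). Of 5 Npr3 probes, a second one fell (-0.84, adjusted p = 0.0086), another changed by -0.81 without passing (adjusted p = 0.079), and the rest stayed near the array median. For all 12 the groups do not overlap, as for 83.9% of called and 13.7% of tested probes. Of these falls 10 (all but Ccn2 and Atf3) passed without any one of the replicates and, with all 36 arrays fitted, without the pairing. With only the 6 arrays and no pairing, none of the falls or rises passed (limma, 2348 probes at an unadjusted p under 0.05). Of the 12 largest rises, the groups do not overlap for 4 (83.9% of called and 13.7% of tested probes), 2 (Adamts4 and Heyl) passed without any one replicate, and 1 (Adamts4) without the pairing. Without replicates 1, 2 and 3, the rises that passed were 3, 8 and 4 of the 12.

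Of 21 tested genes of G1/S and DNA replication, 2 fell and 1 rose (over all tested genes 2.42% and 2.12%), and of 25 of G2/M and mitosis none passed (limma), with list medians of -0.20 and -0.07. Ccnd1, cyclin D1, which carries growth factor signals to the cell cycle, had 10.34, 10.77 and 10.90 at 6 h, against 11.34, 11.16 and 11.29 at 2 h. All 3 levels at 6 h were below those at 2 h (-0.59 ± 0.14, adjusted p = 0.018), and its second probe changed by -0.55 (adjusted p = 0.033). Ung, a uracil DNA glycosylase, fell by 0.39 (adjusted p = 0.048), and E2f2, an E2F factor, rose by 0.71 (adjusted p = 0.026). Of 20 glycolysis and hypoxia genes 3 fell, namely Pfkfb3, a regulator of glycolytic flux (-0.82, adjusted p = 0.00023), the glucose transporter Slc2a1 (-0.49, adjusted p = 0.0097) and Tpi1, triose phosphate isomerase (-0.25, adjusted p = 0.024). Of 18 genes of TGF-beta and BMP response 3 fell: Id2, the BMP antagonist Grem1 (-0.66, adjusted p = 0.012) and the receptor Bmpr1a (-0.51, adjusted p = 0.048). In the extracellular matrix list 3 of 32 fell, Timp3, the urokinase Plau (-0.48, adjusted p = 0.022) and its receptor Plaur (-0.72, adjusted p = 0.0013). With median scaling, 0 G1/S, 1 glycolysis, 0 TGF-beta and 2 matrix genes fell, and without the pairing 0, 1, 0 and 1. Without replicates 1, 2 and 3, 0, 0 and 0 G1/S genes and 1, 0 and 1 glycolysis genes fell. The counts lower were then 0, 0 and 1 for TGF-beta and 2, 1 and 2 for the matrix. Without replicate 1, 1 TGF-beta gene was higher.

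The remaining lists had between 0 and 3 genes called each, to be read against 2.12% of all tested genes higher and 2.42% lower. Targets of FoxO had 2 rises of 24 (Ccng2, an atypical cyclin, by 0.77, and Bcl2l11, which encodes the death factor Bim, by 0.42). Those of p53 had 2 of 15 (Cdkn1a and Zmat3, 0.59), and cytokine genes 2 of 20 (Socs3, 0.63, a feedback inhibitor of cytokine receptors, and the chemokine Cxcl1, 0.63). The interferon list had 1 of 7 (Stat2, 0.47) and the Wnt list 1 of 20 (Wnt9a, 0.55). In the IGF and FGF list Dusp6 rose and Hgf fell of 22, and of 11 heat shock genes Hsph1 rose (0.86) and Hmox1 fell. Falls were called for 1 of 16 clock genes (Cry2, a repressor of the clock, -0.63), for 1 of 16 oxidative metabolism regulators (Pparg, -0.60) and for 3 of 20 actin and serum response factor targets (Srf, Ccn2 and Tuft1, -0.45). Second probes of Srf (-0.26), Dusp6 (0.12), E2f2 (0.21), Pparg (-0.08), Cry2 (-0.13), Hgf (-0.50) and Bcl2l11 (0.19) did not pass. No gene passed among 24 of ribosome biogenesis, 14 of lipogenesis, 16 glucocorticoid and steroid targets or 9 common reference genes (limma). Over all tested probes, 4016 had an unadjusted p under 0.05.

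The myoblast label was checked against markers. Myod1 averaged 10.20 ± 0.39 at 6 h and 10.08 ± 0.35 at 2 h (SD, n = 3 each) and desmin (Des) 12.47 and 12.15, above the array median of 7.09. Of 17 myoblast marker probes, 15 were above the array median in all 3 arrays at 6 h, and likewise at 2 h, and the summed linear level of the list was 41980 to 52820 at 6 h, against 40810 to 43960 at 2 h. Cdh15, M-cadherin, was the only myoblast marker that rose (0.41, adjusted p = 0.029). Marker lists of adipocytes, osteoblasts and cartilage, endothelium, blood and macrophages, neurons and Schwann cells, and epithelium held 1 change, the fall of Pparg. The summed adipocyte list was 4835 to 5502 at 6 h, against 5575 to 5624 at 2 h, and 5 of its 12 probes were above the median in all 3 arrays at 6 h, against 4 at 2 h. Its part in the fall of Pparg was not tested. Of the other types, probes above the median in all 3 arrays at 6 h were 3 of 11 for osteoblasts and cartilage, 2 of 13 for endothelium, 2 of 13 for blood and macrophages, 4 of 17 for neurons and Schwann cells and 3 of 10 for epithelium, with summed levels between 1446 and 3151 at 6 h, against 1468 to 3670 at 2 h. Median raw intensities were 230, 186 and 218 at 6 h, against 208, 219 and 232 at 2 h, within the range of 179 to 307 over the 36 arrays.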

How the data were processed

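RNA from 36 C2C12 cultures became biotin-labelled cRNA, per the labels' protocols, and was read on Mouse WG-6 v1.1 bead arrays of Illumina. Of the files the authors deposited, the raw one gives the intensity of 46019 probes on a linear scale, with no log or normalization. Their normalized one gives log2 values, by a method not given in the sources used here. Intensities were background-corrected (normexp, offset 50), taken to log2 and quantile-normalized. Probes above the array median on at least 3 arrays were tested (29812, with 16207 removed). limma (3.58.1, R 4.3.3) fitted a mean per time and the replicate number as a block to all 36 arrays, with an intensity trend. P-values were two-sided and Benjamini-Hochberg adjusted over all tested probes, with a threshold of 0.05. The p-values measure the spread left between arrays after the block, and the labels do not tie replicate numbers to passages. The median SE of a log2 change was 0.13, for means of 3 arrays per time with the spread taken from all 36 arrays.

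The numbers pair the arrays: deviations from the time means of same-numbered 6 h and 2 h arrays correlated across probes at 0.437, 0.537 and 0.346, against -0.428 to -0.104 for other pairs, and each pair shares a chip, per the file headers. Each row of the series' value table, also log2 values the authors deposited, equalled exactly 1 row of the normalized table in all 36 arrays, which linked 44505 probes to identifiers of the platform annotation. Of all probes, 28471 had 1 gene symbol, 10 several and 17538 none, and 28420 were found in RefSeq (GRCm38.p6). Members and gene lists were chosen with earlier results of these data known. The genes named are the 12 largest rises and 12 largest falls among called probes that moved one way in all pairs (1 probe per gene), list members that passed, and members needed to describe a count. The steps were tested on simulated data with spread drawn independently for each array. They called 36 of 75 changes of log2 size 0.5, 65 of 71 of size 1 and 54 of 54 of size 2. Other settings tried were cyclic loess and median scaling, the authors' normalized values, uncorrected intensities, looser and stricter filters, no trend, other blocks, only the arrays compared, and leaving out each replicate. A fit of the 9 arrays of 2, 3 and 6 h was added after seeing the data.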

Additional observations from a re-analysis of the deposited data

How the results depend on the processing

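The mean change of a probe is the same with and without the pairing, and only its spread differs. Counts that moved by more than 1.5 times from 828 for 6 h against 2 h were 311 with median scaling, 185 with no replicate block, 0 with only the 2 times and no replicate block (2348 probes at an unadjusted p under 0.05), 102 to 203 without any one replicate (fewest without replicate 2), and 1561 with only the 9 arrays of 2, 3 and 6 h, chosen after seeing the data. For 3 h against 2 h, with 55, they were 1 with median scaling, 36 with no filter on dim probes, 95 with a stricter filter, 2 with no replicate block, 0 with only the 2 times and no replicate block (1230 unadjusted), and 0 by limma without each replicate in turn (1251 to 2255 unadjusted). For 6 h against 3 h, with 69, they were 43 with no filter, 150 with a stricter filter, 13 with no replicate block, 123 with the chip as a block, 300 with only the 2 times and the replicate block, 1 with those and no replicate block, 0 to 20 without any one replicate (0 without replicate 3, with 2464 unadjusted), and 221 with the 9 arrays. For 12 h against 0 h, with 1404, they were 841 with median scaling, 630 with no replicate block, 590 with only the 2 times and no replicate block, and 544 and 568 without replicates 2 and 3, in a range of 544 to 938 without any one replicate. The cause was not tested. Of 86 called probes given above, none turned its direction under any of the 15 alternatives. Leaving out a replicate could not turn it, because all calls moved one way in the 3 pairs. Nor could other filters, blocks, array sets or no trend, which keep the mean change. Only the other scalings, uncorrected intensities and the authors' values could. All 86 lost the call with only the 2 times and no replicate block, 60 with no replicate block, 31 with median scaling, 17 in the authors' table and 52, 58 and 51 without replicates 1, 2 and 3. Dim probes near the array median have changes limited by background.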
